A study of Homo sapiens and Mus musculus with 21 samples.

Results

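AXIN2, NKD1, RNF43, ZNRF3, NOTUM and APCDD1 are 6 human genes whose proteins restrain Wnt signalling. They were chosen by name, by joining the identifiers of the human gene table to the symbols of GENCODE release 29, and they are 6 of the 58381 identifiers in that table. All 6 reached at least 1 TPM in at least 3 of the 18 xenograft libraries, as did 22981 genes in all. TPM is the number of reads assigned to a transcript, divided by its length and scaled to a total of 1000000 in each library.

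In the canonical Wnt pathway a cytoplasmic destruction complex holds beta-catenin low, and a Wnt ligand bound by a Frizzled receptor and its co-receptor LRP6 releases it to act with TCF and LEF factors on DNA. Many of the genes switched on in this way encode inhibitors of the pathway itself, so that the signal limits its own strength. In most colon carcinomas a truncated APC protein keeps beta-catenin high without a ligand, and AXIN2 is widely used there as a readout of the pathway.

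The tumours were grown from human colon carcinoma cells injected into the caecum wall of immunodeficient NSG mice and were harvested after 28 days. SW480 and SW620 are established lines from a primary colon tumour and a lymph node metastasis of the same patient. SW480 cells had been transduced with a lentivirus for dnLEF1, a dominant negative form of LEF1, or with a mock lentivirus (Mock). SW620 cells had been transduced in the same 2 ways, or transfected with CRISPR reagents against LRP6 and selected with puromycin before a sort for low LRP6 protein (LRP6KO). Cells mock transfected with CRISPR/Cas9 reagents and then sorted are called Cas9. Each of the 6 groups had 3 libraries made from whole caecum tissue by Smart-seq2, a full-length cDNA method, and only the human transcripts were used here. The design calls the samples biological triplicates, but no label ties a library to an animal, so p-values measure the spread between these libraries. The tissue is bulk, so fewer cells of a type and less RNA per cell cannot be told apart.

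LEF1 mRNA, which includes any reads from the transgene, checks the dnLEF1 labels. It rose from 11.1 ± 5.21 TPM in SW480 Mock to 65.5 ± 29.3 in SW480 dnLEF1, and from 0.563 ± 0.251 in SW620 Mock to 21.6 ± 2.98 in SW620 dnLEF1 (SD, n = 3 in each group), with limma adjusted p of 8.51e-04 and 7.48e-05. LRP6 mRNA did not fall in the libraries labelled LRP6KO, at 19.1 ± 1.86 TPM against 15.4 ± 3.90 in Cas9 (SD, n = 3; limma adjusted p = 1.0). The cells were sorted on the protein and a small edit need not lower the transcript, so this level does not check the label. All 9 epithelial markers were above 0 in every library, led by KRT18 at 3799 to 9552 TPM, while CDX2 and LGALS4 had medians of only 2.75 and 1.19. The 15 stroma markers summed to 16.3 to 43.2 TPM. The libraries held 24665 to 34709 genes above 0, with SW480 Mock replicate 2 at 34709 and SW620 LRP6KO replicate 1 at 34114 above all others.

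AXIN2 is the scaffold that brings beta-catenin to the kinases of the destruction complex, and its gene lies at chr17:65528563-65561647 on the minus strand (GRCh38). AXIN2 stood at 48.2, 61.5 and 62.0 TPM in SW480 Mock replicates 1 to 3 and at 32.5, 25.7 and 29.8 in SW480 dnLEF1. All 3 dnLEF1 libraries were below all 3 Mock libraries. In SW620 the AXIN2 level was 24.3, 26.1 and 29.7 TPM in Mock, 34.0, 22.0 and 19.2 in dnLEF1, 44.2, 33.8 and 37.5 in Cas9 and 34.7, 31.3 and 34.6 in LRP6KO. By mean level the order was SW480 Mock, SW620 Cas9, SW620 LRP6KO, SW480 dnLEF1, SW620 Mock and SW620 dnLEF1. Only the first step of that order, from 57.2 ± 7.85 to 38.5 ± 5.25 TPM (SD, n = 3), had no overlap between neighbouring groups.

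NKD1 encodes a cytoplasmic protein that binds Dishevelled and blocks signal relay to the destruction complex, and its gene spans chr16:50548330-50649249 on the plus strand. NKD1 was at 36.6, 32.5 and 47.3 TPM in SW480 Mock and at 37.4, 37.1 and 99.5 in SW480 dnLEF1. Replicate 3 of SW480 dnLEF1 alone stood apart, and the other 2 dnLEF1 libraries lay within the Mock range. In SW620 NKD1 was at 76.1, 95.6 and 117 TPM in Mock, 146, 81.8 and 64.3 in dnLEF1, 112, 135 and 96.1 in Cas9, and 132, 166 and 97.2 in LRP6KO. Every SW620 library was above every SW480 Mock library, and each group overlapped its neighbour in the order of means, from 132 ± 34.4 in SW620 LRP6KO down to 38.8 ± 7.67 in SW480 Mock (SD, n = 3). The NKD1 gene also holds AC007608.4, an unspliced transcript of the same strand within an intron, at 31.5 to 125 TPM. How reads were assigned to strand and to such nested genes was not given in the sources used here, so the levels of both carry that uncertainty.

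RNF43 and ZNRF3 are related membrane ubiquitin ligases that clear Frizzled and LRP6 from the cell surface, and R-spondin ligands relieve that block. RNF43, at chr17:58352500-58417595 on the minus strand, was at 70.3, 115 and 85.6 TPM in SW480 Mock and at 65.1, 67.0 and 65.2 in SW480 dnLEF1. The 3 dnLEF1 libraries lay close together and just below the lowest Mock library. In SW620 RNF43 was at 21.9, 15.7 and 18.7 TPM in Mock, 20.7, 22.2 and 20.2 in dnLEF1, 26.6, 20.8 and 15.5 in Cas9, and 28.0, 14.2 and 20.5 in LRP6KO. The 4 SW620 groups overlapped one another and all 12 of their libraries were below the 6 SW480 libraries. The RNF43 gene overlaps SUPT4H1 on the same strand, a gene at 59.2 to 115 TPM, so its level is uncertain where reads are shared.

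ZNRF3, at chr22:28883592-29057487 on the plus strand, had the lowest mean TPM of the 6 genes in both SW480 groups. It was at 10.4, 13.9 and 12.5 TPM in SW480 Mock and at 8.37, 6.47 and 4.46 in SW480 dnLEF1. The dnLEF1 libraries were all below the Mock libraries. In SW620 ZNRF3 was at 7.43, 8.57 and 12.2 TPM in Mock, 14.7, 6.81 and 6.92 in dnLEF1, 11.4, 11.95 and 10.1 in Cas9, and 13.2, 11.98 and 7.34 in LRP6KO. Each group overlapped its neighbour in the order of means, which ran from 12.3 ± 1.75 TPM in SW480 Mock to 6.43 ± 1.96 in SW480 dnLEF1 (SD, n = 3). The antisense gene ZNRF3-AS1 was at 2.94 to 14.8 TPM and lies inside the ZNRF3 gene, with an exon overlap of 0 bases. Without a stated strand setting, unspliced reads from the span that the 2 genes share cannot be told apart.

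NOTUM is a secreted enzyme that removes the lipid from Wnt ligands and so inactivates them, and its gene lies at chr17:81952507-81961840 on the minus strand. NOTUM was at 13.6, 27.1 and 41.5 TPM in SW480 Mock, with SW480 dnLEF1 inside that range at 22.3, 26.6 and 21.1. In SW620 NOTUM was at 43.0, 50.8 and 62.4 TPM in Mock, 88.2, 40.2 and 34.9 in dnLEF1, 50.9, 60.1 and 54.0 in Cas9, and 68.7, 66.9 and 47.1 in LRP6KO. The 4 SW620 groups overlapped one another, and all 3 SW620 Mock libraries were above all 3 SW480 Mock libraries. NOTUM was most spread in SW620 dnLEF1 and SW480 Mock, with an SD of 53.9% and 51.0% of the mean.

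APCDD1 is a membrane glycoprotein that binds Wnt and LRP5 at the cell surface, and its gene lies at chr18:10454628-10489948 on the plus strand. APCDD1 was at 115, 196 and 142 TPM in SW480 Mock and at 104, 109 and 110 in SW480 dnLEF1. In SW620 APCDD1 was at 3.60, 3.67 and 3.75 TPM in Mock, 14.3, 4.85 and 8.67 in dnLEF1, 11.3, 8.77 and 11.2 in Cas9, and 10.6, 7.73 and 9.39 in LRP6KO. The SW620 Mock libraries were the lowest of all 18 and differed little from each other. In the order of means APCDD1 stepped without overlap from SW480 Mock to SW480 dnLEF1, from there to SW620 Cas9, and from SW620 LRP6KO to SW620 Mock, while SW620 Cas9, dnLEF1 and LRP6KO overlapped.

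**Figure D1:**
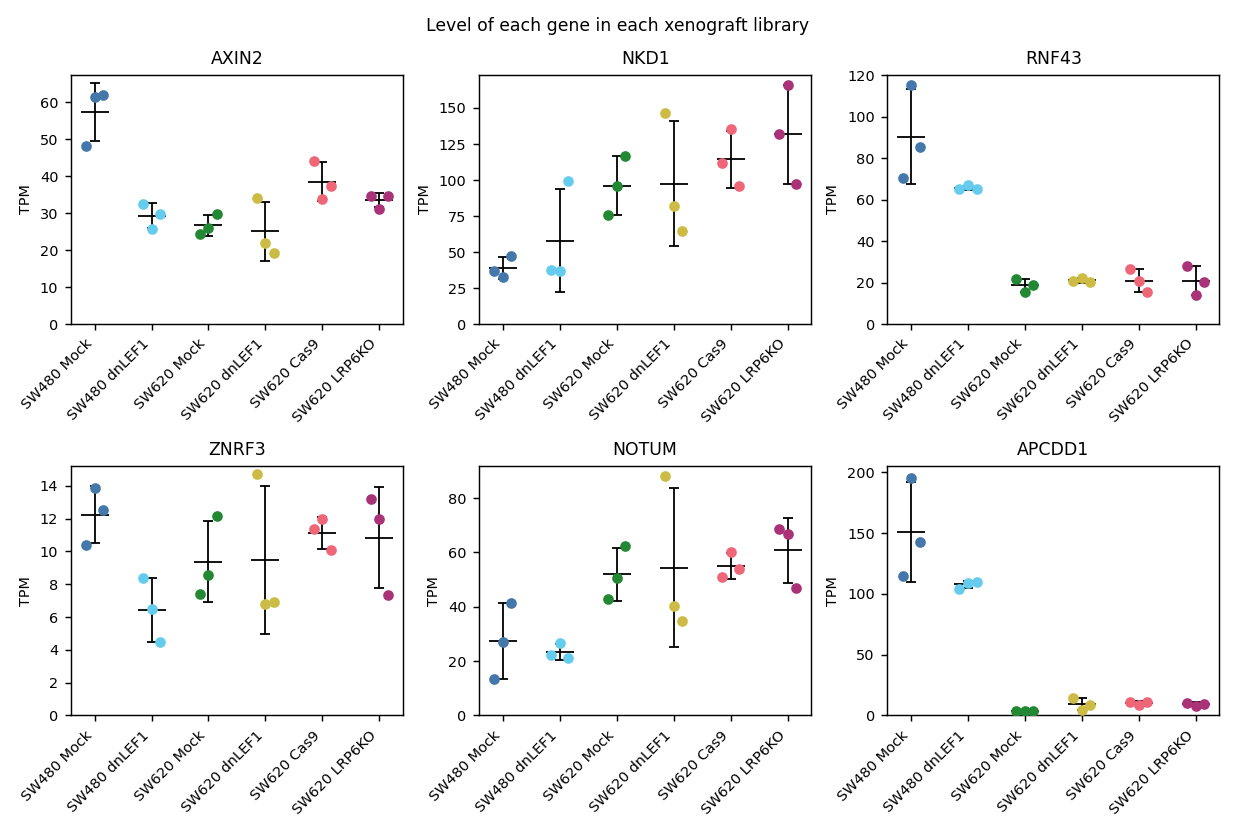
Level in TPM (y axis, from 0, a separate scale for each gene) of the 6 genes in each of 18 libraries, by group (x axis). Points are replicates 1 to 3 from left to right, and bars are the mean and SD. APCDD1 and RNF43 separate the SW480 from the SW620 libraries, AXIN2 is highest in SW480 Mock, and 1 SW620 dnLEF1 library is the highest of its group for AXIN2, NKD1, ZNRF3, NOTUM and APCDD1.

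The first comparison asked which of these inhibitors differed when SW480 tumours carried dnLEF1. AXIN2 fell by 0.94 on the log2(TPM + 1) scale (SE 0.19, 95% interval -1.34 to -0.54), a mean level 1.95 times lower than in Mock, and was the only one of the 6 to pass limma's test at an adjusted p under 0.05 (adjusted p = 0.0147). Over all genes tested 2.23% passed. RNF43, ZNRF3 and APCDD1 also had every dnLEF1 library below every Mock library, so that 4 of the 6 genes did not overlap between the groups, against 11.7% of all genes. ZNRF3 had a difference of -0.86 (SE 0.29, limma adjusted p = 0.155), RNF43 of -0.42 (SE 0.24, adjusted p = 0.437) and APCDD1 of -0.45 (SE 0.27, adjusted p = 0.478), and none of these passed. NOTUM at -0.10 (95% interval -0.83 to 0.63) and NKD1 at 0.43 (95% interval -0.32 to 1.17) overlapped between groups, and the NKD1 value was -0.04 without SW480 dnLEF1 replicate 3. The median difference of the 6 genes was -0.44, beside 0.03 for all genes tested.

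The AXIN2 call in SW480 rested on the spread pooled over all 6 groups. The log2 difference was the same with only the SW480 groups in the fit, where limma's adjusted p was 0.224 and 29 genes passed in place of 512, and LEF1 itself did not pass there (adjusted p = 0.087). The AXIN2 call was also lost with array weights (-0.86, limma adjusted p = 0.0864) and without SW480 dnLEF1 replicate 2, the library with the least AXIN2 (-0.85, adjusted p = 0.0634).

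AC007608.4, the transcript inside NKD1, differed by 1.00 between SW480 dnLEF1 and Mock (SE 0.24, limma adjusted p = 0.0417), although 1 dnLEF1 library at 47.1 TPM lay below the highest Mock library at 47.2. That call was lost under 6 of the 8 alternatives that kept all libraries of these 2 groups and in 4 of the 6 fits that left 1 of them out. NKD1 itself, whose annotated transcript NKD1-201 is 17105 bases long with 1 exon of 16058, did not pass.

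In SW620 the same construct left the 6 genes without a call. No member passed between SW620 dnLEF1 and SW620 Mock, where 38 genes or 0.165% of those tested did. There 1862 genes (8.10%) had an unadjusted p under 0.05. AXIN2 had a difference of -0.13 (95% interval -0.52 to 0.27, limma adjusted p = 0.897), and RNF43 of 0.17 (95% interval -0.33 to 0.67). NKD1, ZNRF3 and NOTUM lay at -0.05 (95% interval -0.79 to 0.70), -0.04 (-0.66 to 0.57) and -0.04 (-0.77 to 0.69). APCDD1 alone did not overlap between the groups, where 20.9% of all genes did not. It was 2.52 times higher by mean level in dnLEF1, a log2 difference of 1.03 (SE 0.27, limma adjusted p = 0.21), and its lowest dnLEF1 library was replicate 2 at 4.85 TPM. Without that library the difference was 1.38 and the adjusted p 0.0361. The median of all genes tested in this comparison was -0.12, and median-ratio scaling, which removed that shift, turned AXIN2, NKD1, ZNRF3 and NOTUM to small positive values of 0.04 to 0.12.

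The dnLEF1 difference was compared between lines within the same fit. None of the 6 genes passed limma's test of that difference, where 165 genes or 0.718% did. For APCDD1 the change in SW620 minus that in SW480 was 1.48 (SE 0.38, limma adjusted p = 0.087), with all 3 libraries higher in SW620 dnLEF1 and all 3 lower in SW480 dnLEF1. It passed with median-ratio scaling (1.73, adjusted p = 0.0496), after a correction for base composition (1.69, adjusted p = 0.0492) and without SW620 dnLEF1 replicate 2 (1.83, adjusted p = 0.0221). For AXIN2 the value was 0.81 (SE 0.27, limma adjusted p = 0.184), so the fall in SW480 was not shown to differ from the value in SW620. For APCDD1, all SW620 Cas9 and LRP6KO libraries, which carry no dnLEF1, were also above all SW620 Mock libraries.

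The SW620 dnLEF1 libraries differed from SW620 Mock in other ways. Mitochondrial coding genes took 4.87% to 6.06% of TPM in dnLEF1 and 3.75% to 4.03% in Mock. The 9 epithelial markers summed to 8748 to 10790 TPM in dnLEF1 and 15150 to 17070 in Mock, led by keratins. The stroma markers, which human cells of this kind should lack, summed to 16.9 to 21.2 TPM in dnLEF1 and 23.0 to 25.3 in Mock. In the SW480 groups the ranges were 3.70% to 5.22% and 4.17% to 4.93% for the mitochondrial share, and 13630 to 18470 and 17630 to 21570 TPM for the epithelial sum. The part of these measures in the values of the 6 genes was not tested, except that leaving the mitochondrial genes out of the scaling changed no call of the 6.

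In the comparison of the libraries labelled LRP6KO with Cas9, the question was whether low LRP6 altered the inhibitors. None of the 6 genes passed limma's test, and no gene of the 22981 did (0.0%), with 766 genes (3.33%) at an unadjusted p under 0.05. Fitted on the 2 groups alone, 10 genes passed, and 1 passed with array weights. No member was free of overlap between the groups, where 9.67% of all genes were. AXIN2 had a difference of -0.19 (95% interval -0.59 to 0.21), RNF43 of -0.02 (-0.52 to 0.48), ZNRF3 of -0.07 (-0.68 to 0.55), NKD1 of 0.18 (-0.56 to 0.93), NOTUM of 0.13 (-0.60 to 0.86) and APCDD1 of -0.16 (-0.72 to 0.41). These intervals do not show that the genes were alike in both groups, and for AXIN2 a fall as large as that in SW480 lies outside the interval.

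Cas9 and Mock are the 2 control groups of SW620, one transfected and sorted and one transduced. Again no member and no gene passed limma's test (0.0%), with 1154 genes (5.02%) at an unadjusted p under 0.05. When only these groups were fitted 8 genes passed, and 101 with array weights. All 6 members had a higher mean log2 level in Cas9, with a median difference of 0.25 beside -0.03 for all genes. AXIN2 and APCDD1 did not overlap between the groups, where 14.2% of all genes did not. AXIN2 was 0.51 higher (SE 0.19, limma adjusted p = 0.865) and APCDD1 1.28 higher (SE 0.27, adjusted p = 0.339), and with array weights APCDD1 passed (1.33, adjusted p = 0.029). This comparison shares its Mock libraries with that of SW620 dnLEF1, and APCDD1 was low in those 3 libraries. The mitochondrial share was 4.73% to 5.71% in Cas9 and 3.75% to 4.03% in Mock. In LRP6KO it was 3.93% to 4.20%, with APCDD1 at 7.73 to 10.6 TPM. Over the 12 SW620 libraries, which share these groups, r of the mitochondrial share with the log2 level was 0.632 for APCDD1. For the other 5 genes that r was 0.123 to 0.29. The part of the mitochondrial share in the group differences was not tested.

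**Figure D2:**
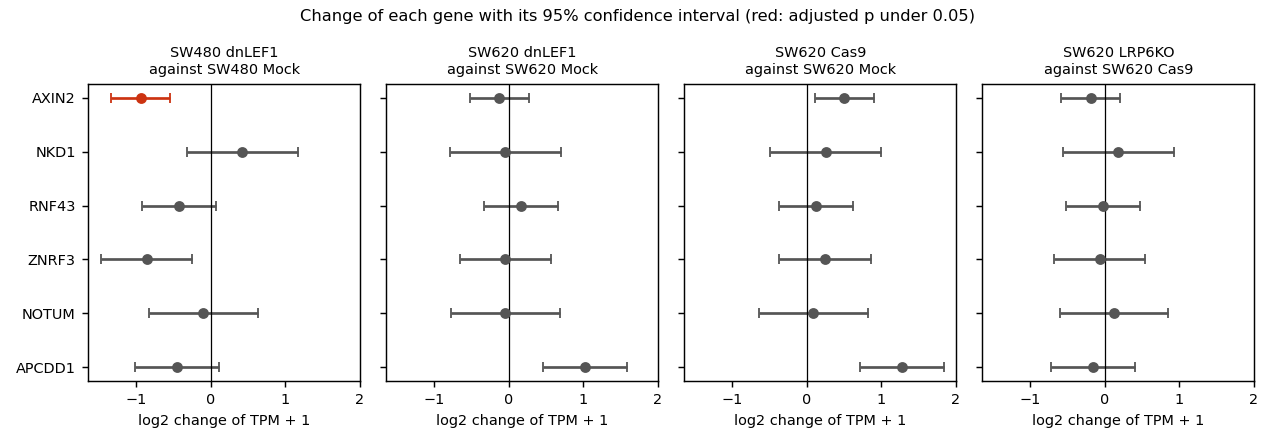
Log2 change of TPM + 1 (x axis) of the 6 genes (y axis) in 4 comparisons, with points for the fitted change and bars for its 95% confidence interval. AXIN2 in SW480 dnLEF1 is the only red point, which marks an adjusted p under 0.05, and the intervals of APCDD1 in SW620 dnLEF1, of APCDD1 and AXIN2 in Cas9 and of ZNRF3 in SW480 dnLEF1 leave out 0 without passing the adjusted test.

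The last comparison set the 2 lines side by side, each with its mock lentivirus. Between SW620 Mock and SW480 Mock 5 of the 6 passed limma's test, beside 23.9% of all genes, and the same 5 did not overlap between the groups, beside 35.4%. APCDD1 was 41.1 times lower by mean level in SW620 Mock, at a log2 difference of -4.99 (SE 0.27, limma adjusted p = 1.33e-09). RNF43 was 4.82 times lower (-2.19, SE 0.24, limma adjusted p = 3.43e-06) and AXIN2 2.14 times lower (-1.07, SE 0.19, adjusted p = 4.87e-04). NKD1 and NOTUM went the other way, with NKD1 2.48 times higher in SW620 Mock (1.29, SE 0.35, limma adjusted p = 0.013) and NOTUM 1.90 times higher (1.02, SE 0.34, adjusted p = 0.0406). ZNRF3 overlapped between the lines and did not pass (-0.37, limma adjusted p = 0.404).

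APCDD1, RNF43 and AXIN2 passed between the lines in every alternative fit. NOTUM was lost in 5 of the 6 fits that left out 1 library, without a filter on low values (limma adjusted p = 0.0823) and with only these groups fitted (adjusted p = 0.0889), and NKD1 was lost without SW480 Mock replicate 2 (adjusted p = 0.0508) or SW620 Mock replicate 3 (adjusted p = 0.0575). SW480 and SW620 were transduced separately, so the line and its transduction cannot be told apart.

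RNF43 and APCDD1 were the pair that varied most closely together within a line. Over the 6 SW480 libraries the Pearson r of their log2(TPM + 1) was 0.997 (0.994 after the correction for base composition). The 3 Mock libraries gave most of that spread, with replicate 2 highest for both genes. That library also had the most genes above 0 (34709) and the largest factor in median-ratio scaling (1.27). The part of these measures in r was not tested. Over the 12 SW620 libraries r was 0.24. The points share libraries and groups, so these values are descriptions and carry no p.

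**Figure D3:**
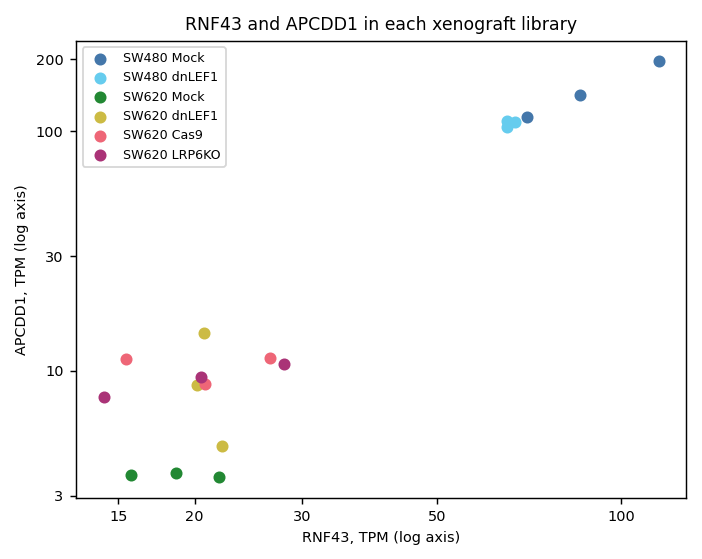
APCDD1 (y axis) against RNF43 (x axis), both in TPM on log axes, with a point for each of 18 libraries coloured by group. The 6 SW480 libraries lie along a line at the upper right, and the 12 SW620 libraries form a separate cloud in which SW620 Mock has the lowest APCDD1.

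The RNF43 gene has 2 start sites in RefSeq's promoter table (GRCh38.p14), and the letters upstream of both are shown because RNF43 lay below its Mock range in SW480 dnLEF1 without passing the test. That table matched 2 of the 6 genes, RNF43 and APCDD1. The stretches below are the part of the 250 bases before each start that holds no GENCODE exon of the gene, at the outer start (chr17:58417596-58417784, minus strand) and at the inner start (chr17:58402722-58402971, minus strand). They run 5′ to 3′, with the match to CTTTG, the core of the TCF and LEF motif, or to its reverse complement in capitals.
RNF43 outer start: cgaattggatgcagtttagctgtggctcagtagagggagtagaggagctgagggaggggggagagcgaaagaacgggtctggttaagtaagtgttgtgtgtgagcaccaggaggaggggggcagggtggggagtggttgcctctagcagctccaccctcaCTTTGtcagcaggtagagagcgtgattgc
RNF43 inner start: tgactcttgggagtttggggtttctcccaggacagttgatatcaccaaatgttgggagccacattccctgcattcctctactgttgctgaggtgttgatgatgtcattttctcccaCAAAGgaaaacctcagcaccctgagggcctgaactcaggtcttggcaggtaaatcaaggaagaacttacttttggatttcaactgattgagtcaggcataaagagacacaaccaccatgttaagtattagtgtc
Each window held 1 match, 90 bases before the outer start and 134 before the inner start, and GC made up 56.0% and 45.2% of the letters. The upstream window of APCDD1 held no match and its GC content was 77.2%. Of 35116 RefSeq promoters of 250 bases 42.07% held a match on either strand. The longer form, in which CTTTG is followed by 2 bases that are each A or T, was in 11.96% of promoters and in none of these 3 windows. A match is a description of letters, and these windows leave out distant enhancers.

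In SW620, where RNF43 stood apart from the others, NKD1, ZNRF3 and NOTUM varied together across libraries. Over the 12 SW620 libraries r was 0.932 for ZNRF3 with NOTUM, 0.912 for NKD1 with NOTUM and 0.887 for NKD1 with ZNRF3. In the same libraries AXIN2 had 0.658 with NKD1, 0.672 with ZNRF3 and 0.609 with NOTUM, and APCDD1 had 0.385, 0.457 and 0.398. RNF43 had -0.07 with NOTUM, -0.10 with NKD1 and 0.059 with ZNRF3. Replicate 1 of SW620 dnLEF1 had the most ZNRF3 and NOTUM, and replicate 3 of that group the least NKD1 and NOTUM. Transcript GC was 60.4% for NKD1, 59.0% for ZNRF3 and 67.1% for NOTUM, and 57.5%, 56.6% and 54.4% for APCDD1, AXIN2 and RNF43. In SW620 NKD1, ZNRF3 and NOTUM varied with the GC tilt of a library. For the tilt, each gene's log2 level was taken relative to its mean over the 18 libraries. The tilt is the median of the tenth of genes with most GC minus that of the tenth with least. Over the 12 SW620 libraries r with the tilt was 0.751 for NKD1, 0.81 for ZNRF3 and 0.698 for NOTUM, and 0.348, 0.171 and -0.153 for AXIN2, APCDD1 and RNF43. After a correction of each library for GC, r in SW620 was 0.915 for ZNRF3 with NOTUM, 0.855 for NKD1 with NOTUM and 0.834 for NKD1 with ZNRF3. Over the 6 SW480 libraries, without the correction, r for these 3 pairs was 0.281, -0.006 and -0.71.

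**Figure D4:**
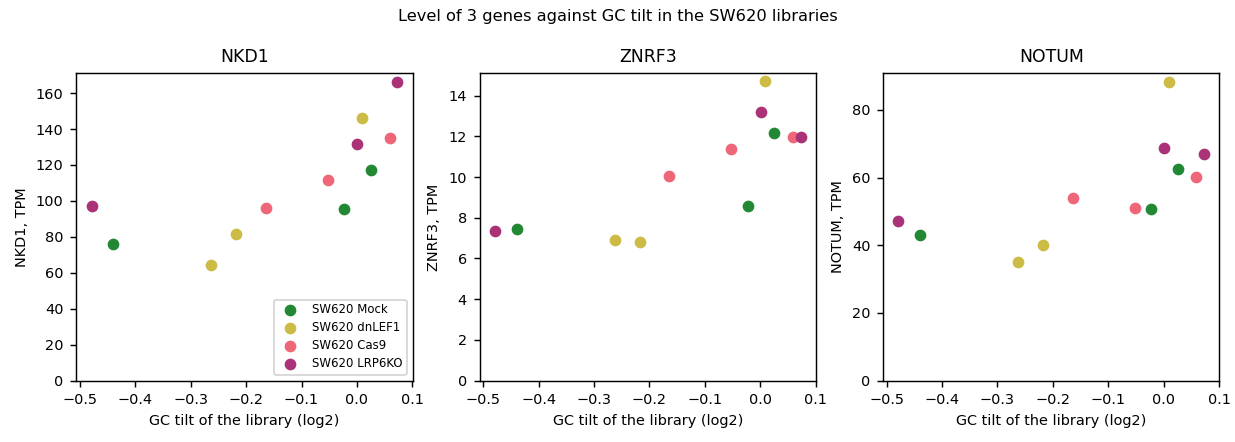
Level in TPM (y axes, from 0) of NKD1, ZNRF3 and NOTUM against the GC tilt of the library on a log2 scale (x axis), with a point for each of 12 SW620 libraries coloured by group. For ZNRF3 and NOTUM all libraries with a tilt near or above 0 are higher than all with a tilt below -0.2, while NKD1 in SW620 Mock replicate 2 (95.6 TPM, tilt -0.02) lies below SW620 LRP6KO replicate 3 (97.2 TPM, tilt -0.48).

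The tilt ran from 0.12 to 0.46 in SW480 libraries and from -0.48 to 0.07 in SW620 libraries. Over the 6 SW480 libraries r with the tilt was 0.836 for NKD1, 0.438 for NOTUM and -0.286 for ZNRF3, whose sign was opposite to that in SW620. SW480 dnLEF1 replicate 3, the library with 99.5 TPM of NKD1, had the highest tilt, 0.46. With the GC correction the NKD1 difference in SW480 was 0.33 and that of AXIN2 -1.03 (limma adjusted p = 0.0152). The same 5 genes passed between SW620 Mock and SW480 Mock, with ZNRF3 at -0.13.

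Genes whose levels followed the members most closely over the 18 libraries were listed for each, among 10775 genes with a mean of at least 5 TPM. For AXIN2 they were AC009502.1 (r = 0.837), CD8B (0.809), ABAT (0.808), BCL2L15 (0.803) and BAMBI (0.792), the last a membrane pseudoreceptor of the TGF-beta family. Within the 12 SW620 libraries BAMBI had the highest r of these 5, 0.852, and within the 6 SW480 libraries BCL2L15, 0.958. NKD1 was followed most closely by its paralog NKD2 (r = 0.933 over 18 libraries, 0.846 within SW480 and 0.852 within SW620) and by PIM3 (0.927). NKD2 was at 1.60 TPM on average in SW480 and 11.7 in SW620. RNF43 was nearest to PTGFRN (0.982) and CRAT (0.969), ZNRF3 to LRRC8A (0.836) and FOXM1 (0.80), NOTUM to BCAR1 (0.911) and HES6 (0.909), and APCDD1 to CLDN7 (0.978) and NSMF (0.976). For RNF43 and APCDD1 the 2 lines form separate clusters, so these values include the gap between the lines. The 18-library values of the other members can include such a gap too. For NOTUM, r within SW480 and SW620 was 0.493 and 0.895 with BCAR1, and 0.622 and 0.777 with HES6. It was 0.908 and 0.58 for AXIN2 with CD8B, 0.913 and 0.666 for NKD1 with PIM3, and 0.778 and 0.905 for ZNRF3 with LRRC8A. Within SW480 and SW620 r with RNF43 was 0.716 and 0.866 for PTGFRN, and 0.717 and 0.513 for CRAT. For NSMF r with APCDD1 was 0.916 and 0.539. CLDN7, a tight junction claudin, was at 298 TPM on average in SW480 and 5.08 in SW620. Its r with APCDD1 was 0.262 within the 6 SW480 libraries and 0.66 within the 12 SW620 libraries.

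The rest of the pathway gives the setting of the 6 genes. The counts for the 5 lists stand beside the shares over all genes tested. These were 2.23% in SW480 dnLEF1, 0.165% in SW620 dnLEF1 and 23.9% between the Mock groups. Of 16 other secreted and membrane inhibitors 9 were tested, and in SW480 dnLEF1 1 fell and 1 rose. DKK1, which binds LRP6, fell by 1.10 (SE 0.24, limma adjusted p = 0.0221) from 10.0 ± 2.62 to 4.11 ± 0.922 TPM, and TPBG, a membrane protein that alters LRP6 handling, rose by 1.11 from 8.39 ± 1.55 to 19.5 ± 4.53 TPM (SD, n = 3; adjusted p = 0.0457). Both calls were lost in several other fits, the TPBG call without any 1 of 5 of the 6 libraries and the DKK1 call without SW480 dnLEF1 replicate 2 or Mock replicate 1. None of the 9 passed in SW620 dnLEF1, LRP6KO or the Cas9 comparison. Between the Mock groups DKK1 (1.43) and DKK2 (1.38) were higher in SW620 and DKK4 (-8.62), DKK3 (-1.45) and TPBG (-1.23) lower, all with limma adjusted p under 0.05. DKK4, a close relative of DKK1, was at 1010 ± 605 TPM in SW480 Mock and 1.35 ± 0.66 in SW620 Mock (SD, n = 3), while DKK2 was listed at 0 in all SW480 Mock libraries.

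Of 19 cytoplasmic regulators 15 were tested, and none passed in the 2 dnLEF1 comparisons, LRP6KO or Cas9. AXIN1, the paralog of AXIN2, had 6.73 ± 2.44 TPM in SW480 Mock and 5.02 ± 0.711 in SW480 dnLEF1 (SD, n = 3; -0.31, limma adjusted p = 0.685). Between the Mock groups CTNNBIP1 (1.60), which blocks the contact of beta-catenin with TCF, and NKD2 (2.42) were higher in SW620, and CTNNB1 (-1.24), which encodes beta-catenin, and DVL3 (-0.93) were lower. Of 19 receptors and R-spondins 13 were tested, with calls only between the Mock groups, where LGR5, FZD10 and FZD5 were higher in SW620 and FZD6, FZD7 and FZD2 lower. The FZD2 call was lost without SW480 Mock replicate 3 or SW620 Mock replicate 1 (limma adjusted p = 0.0658 and 0.0613). The FZD5 call was lost with only the groups compared (limma adjusted p = 0.0786). LGR5, a receptor for the R-spondins that act on RNF43 and ZNRF3, was at 6.53 ± 2.48 TPM in SW620 Mock and 0.133 ± 0.122 in SW480 Mock (SD, n = 3).

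Of 12 TCF factors and cofactors 11 were tested. Besides LEF1 itself, TLE1, a corepressor of TCF factors, rose by 1.75 in SW480 dnLEF1 (limma adjusted p = 0.0079), from 0.197 ± 0.229 to 3.36 ± 2.23 TPM (SD, n = 3). The TLE1 call was lost with only the groups compared (limma adjusted p = 0.303). TCF7 (-2.18), TLE3 (-1.25) and TLE4 (-1.93) were lower, with LEF1, and TCF7L2 (0.70) higher in SW620 Mock than in SW480 Mock. The TCF7L2 ranges overlapped, and its call was lost without SW480 Mock replicate 2 or 3 or SW620 Mock replicate 2 or 3 (limma adjusted p = 0.0594 to 0.163), without a filter, with array weights and with only the groups compared (0.0607, 0.0711 and 0.127). Of 22 other intestinal targets of beta-catenin and TCF 21 were tested, and in SW480 dnLEF1 SMOC2 rose by 4.20 and ETS2 by 0.93 while DKK1 fell, with limma adjusted p of 3.86e-08, 0.017 and 0.0221. The median of these 21 genes was -0.04 in SW480 dnLEF1 and 0.14 in SW620 dnLEF1, where none passed. The ETS2 call was lost without SW480 dnLEF1 replicate 3 (limma adjusted p = 0.0586) or Mock replicate 1 (adjusted p = 0.0725), with median-ratio scaling (adjusted p = 0.057) and with only the groups compared (adjusted p = 0.277). Between the Mock groups 8 were higher in SW620 and 8 lower, beside 23.9% of all genes in either direction. SOX4 (3.73), SMOC2 (3.67) and BMP4 (3.33) were at one end and CD44 (-3.84), PLAUR (-2.61) and CCND1 (-2.20) at the other. The calls of SP5, TNFRSF19 and TIAM1, all lower in SW620 Mock, were lost in other fits, that of SP5 in most of them. SP5 was lost without a filter, with median-ratio scaling and with only the groups compared (limma adjusted p = 0.0699, 0.11 and 0.105). It was also lost with array weights, the replicate block and the GC correction (limma adjusted p = 0.0998, 0.0576 and 0.0962). The same held without SW480 Mock replicate 2 or 3 or any SW620 Mock replicate.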

How the data were processed

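The deposited human table gives TPM per gene for 18 xenograft libraries. Per the submitters' processing notes, reads were processed with Trimmomatic 0.35, Bowtie 1.2 and RSEM 1.2.31 on hg38 and mm10. How human and mouse reads were separated, and strand use, were not given in the sources used here. TPM keeps no depth, so no counting interval is given. The mouse table was not used.

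Of 58381 identifiers, 45 second copies of pseudoautosomal genes, all at 0, were left out. A gene was kept if 3 or more libraries had 1 TPM or more, and the test used log2(TPM + 1), which understates changes of low genes, with limma 3.58.1 (R 4.3.3, intensity trend) and a mean for each of 6 groups. The Benjamini-Hochberg adjustment covered all genes within each of 6 comparisons, with 0.05 as threshold. The test was checked on simulated data. GENCODE release 29 gave symbols and positions. GC content was averaged over a gene's transcripts, and the GC correction removed the trend over 20 GC bins per library. Summaries were made in Python 3.11.15 (pandas 2.3.3, numpy 2.4.6) and plots with matplotlib 3.10.9.

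Genes named were the 6, LEF1, LRP6, the genes of 5 pathway lists that passed (or the 2 with the smallest p) and the genes most like each member (5 for AXIN2, 2 for the others). AC007608.4, ZNRF3-AS1, SUPT4H1 and AXIN1 were added after their values were seen, and not all genes the rule allows are printed. The members and lists were chosen with earlier results of these data known. Alternatives were another pseudocount (0.1), no filter, median-ratio scaling, no mitochondrial genes, only the groups compared, array weights, the replicate block and each library left out. The GC correction was chosen after seeing the data.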

Additional observations from a re-analysis of the deposited data

Results flagged for a closer look

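The dnLEF1 difference was set against itself in SW620 and SW480 for APCDD1, DKK1 and SMOC2, either because the test of that difference passed or because all libraries moved in opposite directions. For APCDD1 the change in SW620 minus that in SW480 was 1.48 on the log2(TPM + 1) scale, where every dnLEF1 library lay above Mock in SW620 (4.85 to 14.3 against 3.60 to 3.75 TPM) and below it in SW480 (104 to 110 against 115 to 196 TPM). The test of that difference did not pass (limma adjusted p = 0.087). SW620 Cas9 and LRP6KO, which carry no dnLEF1, were at 8.77 to 11.3 and 7.73 to 10.6 TPM. Both lay inside the SW620 dnLEF1 range and above SW620 Mock, so the SW620 value may reflect low Mock libraries, which was not tested.

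DKK1 gave a difference of 2.02 that passed (SE 0.34, limma adjusted p = 0.00952), with 50.3 to 59.2 TPM in SW620 dnLEF1 against 19.9 to 39.8 in Mock, and 3.06 to 4.80 in SW480 dnLEF1 against 7.75 to 12.9 in Mock. That call was lost with only the groups compared (limma adjusted p = 0.0568).

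SMOC2 gave a difference of -3.85 that passed (SE 0.32, limma adjusted p = 1.72e-05). It went from 0.417 ± 0.0896 TPM in SW480 Mock to 25.7 ± 7.19 in SW480 dnLEF1, and from 17.7 ± 6.11 in SW620 Mock to 22.1 ± 2.68 in SW620 dnLEF1 (SD, n = 3), where its own change did not pass (0.35, limma adjusted p = 0.727).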

How the results depend on the processing

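Over all genes in SW480 dnLEF1, 333 passed with a pseudocount of 0.1, 29 with only the groups compared, 261 with array weights, and 272 to 1223 with 1 library left out (1223 without dnLEF1 replicate 1), beside 512. In SW620 dnLEF1 21, 120 and 394 passed under the same 3 settings and 17 to 26 with a library left out, beside 38. For LRP6KO 10 passed with only the groups compared and 1 with array weights. For Cas9 1 passed without a filter, 8 with only the groups compared, 101 with array weights, 3 with the GC correction and 0 to 1 with a library left out. For the difference between lines 108 passed with median-ratio scaling, 43 with only the groups compared, 358 with array weights and 66 to 781 with a library left out, beside 165.

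Of the 6 genes, 0 passed in SW480 dnLEF1 with only the groups compared or array weights. APCDD1 was the 1 gene that passed for Cas9 with array weights, and for the difference between lines with median-ratio scaling or the GC correction. With a library left out the count was 0 to 1 in SW480 dnLEF1, SW620 dnLEF1 and the difference between lines, and 3 to 5 between the Mock groups, with 3 without SW480 Mock replicate 2 or SW620 Mock replicate 3.

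Signs turned only for values that did not pass. With array weights NOTUM was at 0.105 in SW480 dnLEF1 and -0.362 for the difference between lines. In SW620 dnLEF1 AXIN2, NKD1, ZNRF3 and NOTUM were at 0.039, 0.122, 0.112 and 0.124 with median-ratio scaling and at 0.003, 0.127, 0.115 and 0.111 with the GC correction. Without mitochondrial genes NKD1, ZNRF3 and NOTUM were at 0.023, 0.021 and 0.026 there. With a library left out, AXIN2 in SW620 dnLEF1 ran from -0.359 to 0.037, NKD1 from -0.381 to 0.207, ZNRF3 from -0.375 to 0.141 and NOTUM from -0.448 to 0.208. In SW480 dnLEF1 NKD1 ran from -0.039 to 0.66 and NOTUM from -0.512 to 0.26. In LRP6KO NKD1 ran from -0.001 to 0.382, RNF43 from -0.246 to 0.22 and ZNRF3 from -0.218 to 0.167. In Cas9 RNF43 ran from -0.051 to 0.321 and NOTUM from -0.037 to 0.226, and for the difference between lines NOTUM ran from -0.351 to 0.469. Apart from fits with fewer samples or genes, the cause of these changes was not tested.

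With the replicate number as a block 1 of the 6 genes passed in SW480 dnLEF1 and 4 between the Mock groups, where NOTUM was lost (limma adjusted p = 0.0609), and 0 in the other comparisons. The calls of AC007608.4 and TPBG in SW480 dnLEF1 were lost too (limma adjusted p = 0.0548 and 0.0642). Over all genes 417, 32, 0, 0, 5196 and 144 passed, in the order of the report with the difference between lines last. Deviations of libraries with the same number had correlations of -0.133 to 0.117. Low values over all genes do not show that such libraries shared no batch, and the labels name none.

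Groups of 3 libraries and values without counts limit all results. The depth is unknown, so no counting error could be given for ZNRF3 or for APCDD1 in SW620. Median-ratio scaling moved the median log2 value of all genes from -0.12 to -0.001 in SW620 dnLEF1 and from -0.166 to 0.023 for the difference between lines.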
